A study of Mus musculus with 14 samples.

Results

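The 42 cell cycle genes described here were measured in 14 mouse liver tumours. They were taken by symbol from a list of S phase, G2/M, cyclin and inhibitor genes, with no threshold on measured values, although the list was drawn up with earlier results of these data known, and all 42 were among the 29923 gene symbols of the deposited expression table. By role, 11 act in S phase, 17 act in G2 and mitosis, 11 are cyclins or cyclin-dependent kinases, and 3 are cyclin-dependent kinase inhibitors. Of these, 41 reached 1 TPM (a transcript's share of the library after correction for its length) in at least 3 tumours and entered the tests with 13466 genes in all. The exception was Cdkn2a, which reached 1 TPM in 2 tumours.

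The tumours were spontaneous hepatocellular carcinomas in C57BL/6 mice, raised by tail-vein injection of plasmids with the SB100 transposase. All carried a MYC plasmid with luciferase, either alone (Luc) or with the OVA, SIN and SIY antigens (LucOS), and all carried either a plasmid for Aoah, a lipase that removes fatty acyl chains from lipopolysaccharide, or the empty vector. The groups were Luc Aoah (n = 4), Luc vector (n = 4), LucOS Aoah (n = 3) and LucOS vector (n = 3). The study lists an N90-CTNNB1 plasmid without saying which tumours received it, and describes an anti-PD1 experiment without saying whether these tumours were treated. MYC was therefore overexpressed in the controls too, from the EF1a promoter. The labels number the tumours and do not say whether each came from its own mouse, so p-values measure the spread between tumours only. Each sample is a bulk tumour, in which fewer cycling cells and less RNA per cell cannot be told apart.

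As background, a cell that commits to division raises D-type cyclins, which act with Cdk4 and Cdk6 on the retinoblastoma proteins and release E2F factors. E2F factors switch on Ccne1, Ccne2 and the genes of DNA replication, whereas the genes of G2 and mitosis are switched on later through the MuvB complex with B-Myb and FOXM1, at promoter elements named the cell cycle homology region (CHR) and the CCAAT box. In the resting liver most hepatocytes do not divide, and MYC drives them into the cycle.

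Aoah was measured at 283.7 to 931.1 TPM in the 7 Aoah tumours and at 0.7 to 54.8 TPM in the 7 vector tumours, the highest of which were Luc vector 1 (18.6 TPM) and Luc vector 3 (54.8 TPM). A pair of libraries stood apart in composition. Small noncoding RNA made up 3.51% of TPM in Luc Aoah 3 and at most 0.0713% elsewhere, and mitochondrial transcripts made up 16.6% in LucOS Aoah 3 and 3.41% to 8.45% elsewhere. The number of reads behind each value is unknown, because TPM keeps no depth. The hepatocyte markers Alb, Apoa1, Ttr, Hnf4a, Tat and Tdo2 were above 0 in every tumour, as were the tumour markers Gpc3, Afp, H19, Igf2bp3 and Spink1.

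Several of these genes were abundant in every group. Pcna, the sliding clamp of DNA polymerase, ranged from 122.9 to 286.1 TPM over the 14 tumours, Cdk1, the kinase that starts mitosis, from 97.05 to 256.4 TPM, and Cdk4, a G1 kinase, from 147.2 to 461.4 TPM. Birc5, the survivin subunit of the chromosomal passenger complex, ranged from 78.56 to 157.5 TPM. At the other end, E2f1 stood at 0.83 to 3.44 TPM, Foxm1 at 0.73 to 7.70 TPM and Cdkn2a at 0.06 to 1.47 TPM. The summed level of the 17 G2/M genes lay between 417.47 and 791.23 TPM with Aoah in Luc and between 339.56 and 806.55 TPM with vector in Luc. In LucOS it lay between 432.56 and 650.72 TPM with Aoah and between 517.19 and 728.52 TPM with vector. The 11 S phase genes summed to between 467.58 and 754.91 TPM with Aoah in Luc and between 387.70 and 785.88 TPM with vector in Luc. The LucOS sums lay between 453.56 and 720.77 TPM with Aoah and between 585.23 and 742.56 TPM with vector. Thus the range within each Luc group covered most of the range over all tumours.

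**Figure D1:**
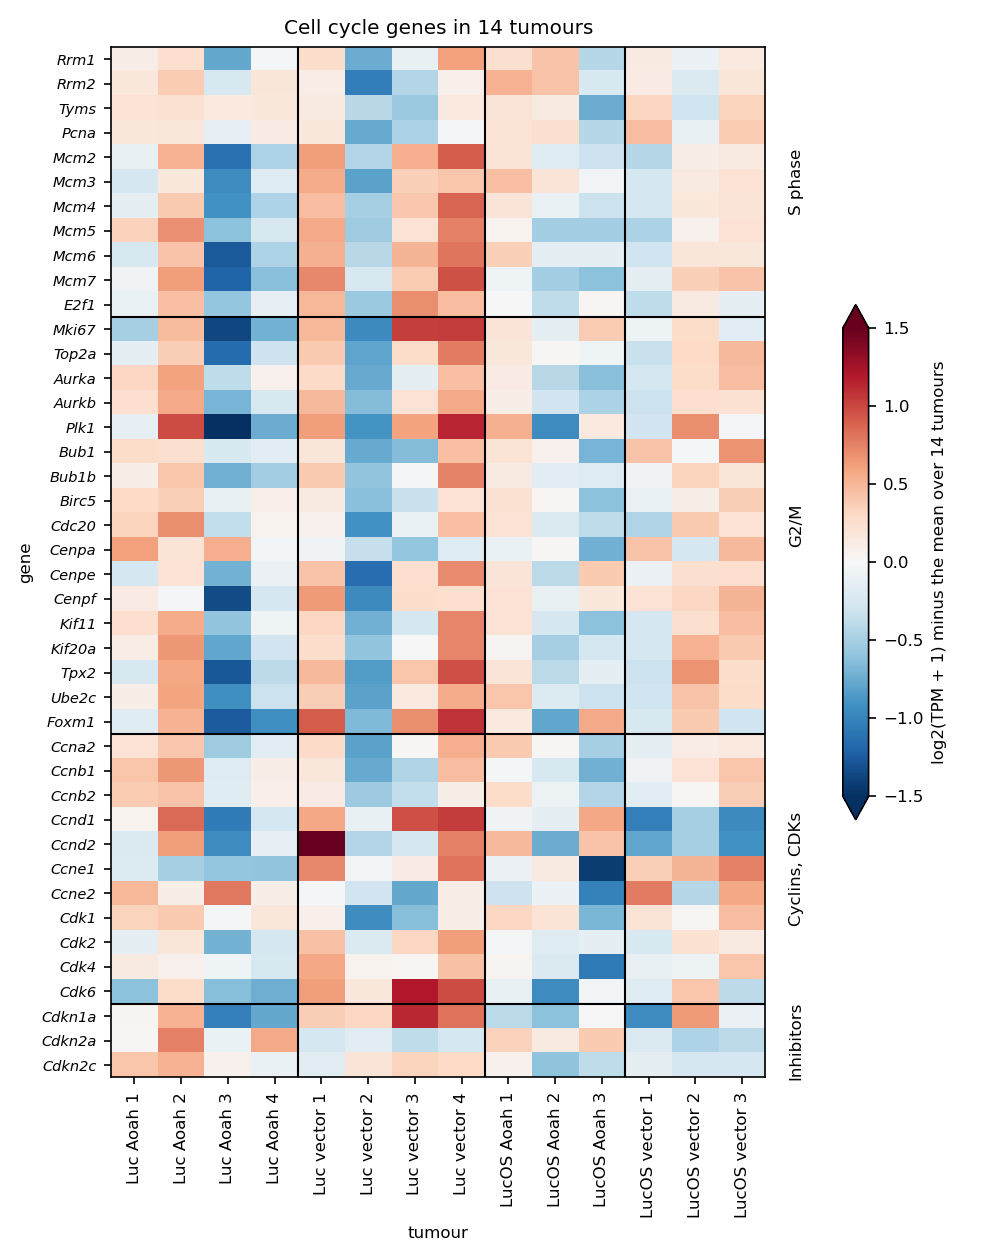
Each row is 1 of the 42 cell cycle genes and each column 1 of the 14 tumours; colour is log2(TPM + 1) minus the gene's mean over the 14 tumours, and values beyond the ends of the scale take the end colours. Luc Aoah 3 and Luc vector 2 are low for most rows and Luc vector 4 is high, whereas no group is uniformly high or low.

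Tumours of 1 group differed from each other for most of these genes at once. Luc Aoah 3 had the lowest level of all 14 tumours for 22 of the 42 genes and Luc vector 2 for 12, whereas Luc vector 4 had the highest level for 19 and Luc Aoah 2 for 8. Mki67, which encodes the Ki-67 antigen of dividing cells, was at 8.02, 16.74, 3.94 and 6.80 TPM in Luc Aoah tumours 1 to 4 and at 17.08, 5.59, 25.23 and 25.47 TPM in Luc vector tumours 1 to 4. In LucOS tumours it was at 13.60, 10.56 and 15.66 TPM with Aoah and at 11.08, 14.49 and 10.40 TPM with vector. The Luc groups overlap because Luc vector 2 is lower than 3 of the 4 Luc Aoah tumours, and the LucOS groups overlap throughout. Top2a, the topoisomerase that untangles chromosomes before mitosis, was at 53.79, 77.26, 26.12 and 47.81 TPM in Luc Aoah tumours and at 78.46, 33.88, 72.15 and 101.93 TPM in Luc vector tumours. It was at 67.14, 60 and 56.74 TPM in LucOS Aoah tumours and at 46.75, 73.44 and 83.76 TPM in LucOS vector tumours. The same tumours, Luc Aoah 3 and Luc vector 2, were the lowest of their groups for both genes.

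The spread within groups was wider for these genes than for a typical gene. The within-group SD on the log2(TPM + 1) scale had a median of 0.46 over the 41 genes tested and of 0.37 over all 13466 genes. It was largest for Ccnd2 (0.90), Plk1 (0.89), Foxm1 (0.71), Mki67 (0.68) and Tpx2 (0.65), and smallest for the inhibitor Cdkn2c (0.26). Foxm1, the transcription factor of G2/M genes, was at 2.62, 4.90, 0.73 and 1.16 TPM in Luc Aoah tumours, 6.70, 1.59, 5.65 and 7.70 TPM in Luc vector tumours, 3.55, 1.38 and 5.07 TPM in LucOS Aoah tumours, and 2.48, 4.38 and 2.32 TPM in LucOS vector tumours. Its highest value was 10.55 times its lowest. Plk1, a mitotic kinase, ranged from 3.72 TPM in Luc Aoah 3 to 33.19 TPM in Luc vector 4.

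In some tumours these shifts moved with shifts of the whole library, and in others they did not. In Luc vector 4 all 41 tested genes lay above their group mean, as did 77.8% of all genes, and the median deviation was 0.45 for the cell cycle genes and 0.18 for all genes (log2). In Luc vector 2, 1 of 41 lay above, against 25.3% of all genes, with median deviations of -0.73 and -0.24. In Luc Aoah 3, 2 of 41 lay above, against 19.1% of all genes, with median deviations of -0.55 and -0.33. LucOS Aoah 3, with its high mitochondrial share, went the other way, with a median deviation of -0.24 for the cell cycle genes and 0.07 for all genes. In Luc vector 1 the cell cycle genes shifted with almost no shift of the library. There 37 of 41 lay above, against 52% of all genes, with median deviations of 0.28 and 0.01. The part of the library-wide shift in the levels of these genes was not tested.

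**Figure D2:**
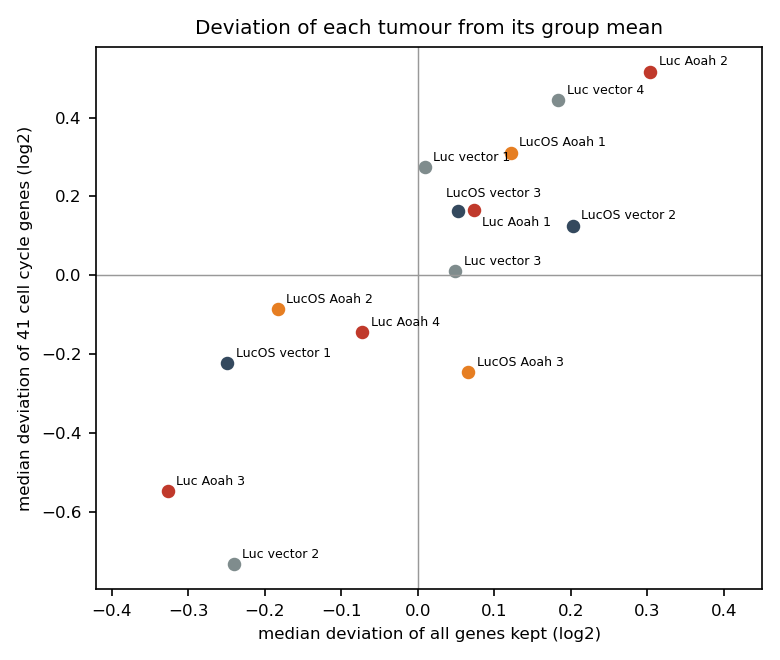
Each point is 1 tumour; the horizontal axis is the median deviation from the group mean over the 13466 genes tested and the vertical axis the same over the 41 cell cycle genes, both in log2(TPM + 1) units. Luc vector 2 lies lowest at -0.73 and Luc Aoah 2 highest at 0.52, and the medians have the same sign in all tumours except LucOS Aoah 3.

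Many G2/M genes and many S phase genes shifted together from tumour to tumour, and their promoters are described here for the elements named above. Whether these elements have a part in the shifts was not tested. The RefSeq promoter table (build GRCm38.p6, 250 bases before to 50 after each start) matched 33 of the 42 genes. Both strands were searched for the CHR (TTTGAA or TTCGAA), the CCAAT box (CCAAT) and an E2F site core (TTTCCCGC, TTTGGCGC, TTTCGCGC or TTTGCCGC), and the E2F cores can overlap one another. A CHR was present in 11 of 13 G2/M genes (84.6%), in 2 of 10 S phase genes (20%) and in 21.7% of the 27025 genes with a promoter. A CCAAT box was present in 12 of 13 G2/M genes (92.3%), 8 of 10 S phase genes (80%) and 41.1% of all genes. An E2F core was present in 4 of 10 S phase genes (40%), in 0 of 13 G2/M genes and in 2.6% of all genes. A match describes letters and not a bound site. The 4 G2/M promoters below end just before the start site or the first annotated UTR, read 5′ to 3′ on the gene's strand, and carry matches in capitals (a match on the other strand appears as its reverse complement, ATTGG for CCAAT and TTCAAA for TTTGAA).
Top2a, chr11:99024190-99024339, minus strand: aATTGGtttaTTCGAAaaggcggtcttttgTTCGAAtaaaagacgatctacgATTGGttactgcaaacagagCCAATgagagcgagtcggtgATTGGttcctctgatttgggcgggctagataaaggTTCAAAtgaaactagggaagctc
Mki67, chr7:135716380-135716529, minus strand: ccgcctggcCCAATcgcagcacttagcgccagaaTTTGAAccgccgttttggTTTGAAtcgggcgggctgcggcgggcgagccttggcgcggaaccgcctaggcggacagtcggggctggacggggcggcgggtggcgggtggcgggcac
Cdc20, chr4:118437353-118437493, minus strand: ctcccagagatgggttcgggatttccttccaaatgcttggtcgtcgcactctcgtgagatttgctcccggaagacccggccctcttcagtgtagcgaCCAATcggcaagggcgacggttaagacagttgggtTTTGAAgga
Kif11, chr19:37376232-37376381, plus strand: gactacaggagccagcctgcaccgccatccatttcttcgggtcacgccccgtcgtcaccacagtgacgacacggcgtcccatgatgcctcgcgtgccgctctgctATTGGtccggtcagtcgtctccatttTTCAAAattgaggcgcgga

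Top2a carried 3 CHR and 4 CCAAT matches in this window, and Mki67 2 CHR matches and 1 CCAAT match. Cdc20, the activator of the anaphase-promoting complex, and Kif11, the spindle motor, each carried 1 CHR close to the start. Among S phase genes, Mcm6, a subunit of the replicative helicase, is shown because it carried E2F cores together with CCAAT boxes. A pair of E2F cores on opposite strands share bases, and another lies nearer the start.
Mcm6, chr1:128359706-128359855, minus strand: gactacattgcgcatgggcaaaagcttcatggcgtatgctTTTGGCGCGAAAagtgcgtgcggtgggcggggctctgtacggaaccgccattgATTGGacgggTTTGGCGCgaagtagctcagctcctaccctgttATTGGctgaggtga

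**Figure D3:**
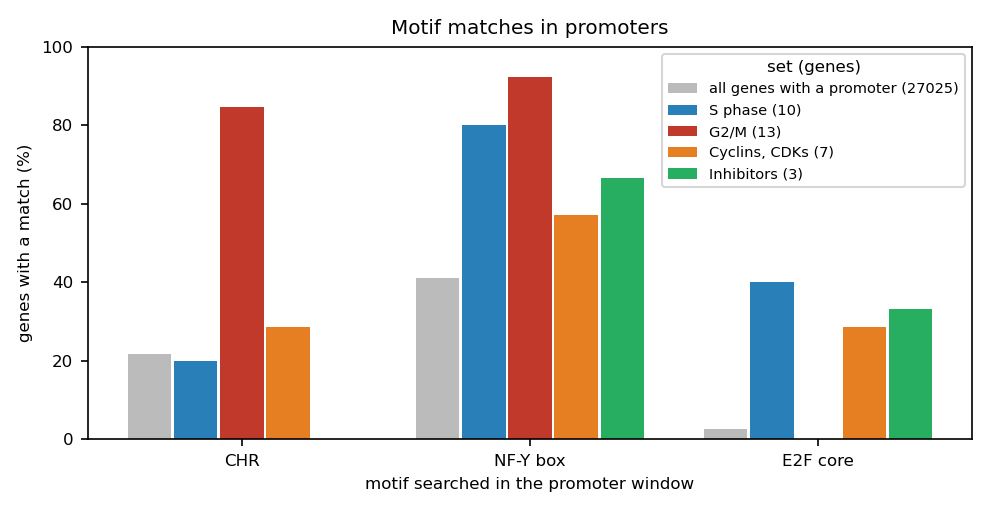
Bars give the percentage of genes with at least 1 match in the 300-base promoter window, on either strand, for 27025 genes and for the 4 role groups (number of genes in the legend). The G2/M bar reaches 84.6% for the CHR against 21.7% of all genes, and the S phase bar reaches 40% for the E2F core against 2.6%.

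The first comparison asked whether Aoah changed these genes in Luc tumours. By limma on log2(TPM + 1), with Benjamini-Hochberg adjustment over 13466 genes at 0.05, 0 of the 41 genes rose and 1 fell, whereas 22.2% of all genes tested were called (7.93% higher and 14.3% lower). The gene that fell was Cdk6, a G1 kinase partner of D-type cyclins. Without adjustment, 10 of 41 had p under 0.05, against 41.8% of all genes. The median change was -0.27 for the 41 genes and -0.24 for all genes, so that 27 of 41 were below 0 and 14 above, but 21 lay below and 20 above the median of all genes. The directions of Aurkb, Ccna2, Kif20a, Mcm5, Rrm1 and Ube2c flip when changes are taken relative to that median. When each tumour was centred on its own median, 7 genes were called, Ccnb1, Ccnb2, Cdc20, Cdk1, Cenpa and Rrm2 higher and Cdk6 lower, and 4120 of all 13466 genes were called with it (2145 higher, 1975 lower). Without Luc Aoah 2 the count was 11 (1 higher, 10 lower), beside 5251 of 13354 genes in all (1200 higher, 4051 lower). Without Luc vector 2 it was 10 (0 higher, 10 lower), beside 4426 of 13390 genes (1083 higher, 3343 lower). Without both Luc Aoah 3 and Luc vector 2 it was 2, Cdk6 and Mki67, both lower, beside 2286 of 13310 genes.

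No S phase gene was called in Luc tumours, 3 of 11 had positive and 8 negative changes, and the median change was -0.36. The 6 minichromosome maintenance genes, the helicase that opens DNA at replication forks, all had negative changes, from -0.77 for Mcm7 (SE 0.34, limma adjusted p = 0.108) to -0.21 for Mcm5, although Mcm5 lay 0.04 above the median of all genes. Mcm6 had the smallest p of the group. It was at 40.80, 65.64, 19.64 and 34.93 TPM in Luc Aoah tumours and at 70.53, 36.18, 69.55 and 85.38 TPM in Luc vector tumours, a change of -0.74 (SE 0.32, limma adjusted p = 0.099), and the groups overlap because Luc vector 2 is lower than Luc Aoah 1 and Luc Aoah 2. The nucleotide synthesis genes Rrm2 (0.44) and Tyms (0.36) and the clamp gene Pcna (0.36) had positive changes that did not pass the test. E2f1, an activator of S phase genes, was at 1.55, 2.76, 0.83 and 1.52 TPM with Aoah and at 2.86, 0.87, 3.44 and 2.77 TPM with vector (change -0.36, SE 0.28, limma adjusted p = 0.33), so the groups overlap.

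No G2/M gene was called in Luc tumours either, with 6 of 17 changes positive, 11 negative and a median of -0.21. Cenpa, the histone variant that marks centromeres, had the smallest p. It was at 89.04, 66.49, 84.33 and 56.12 TPM in Luc Aoah tumours and at 55.44, 44.99, 38.15 and 50.17 TPM in Luc vector tumours. The groups did not overlap, and the change was 0.63 (SE 0.23, limma adjusted p = 0.0591). Cenpa and Ccne1 were the 2 cell cycle genes of 41 (4.88%) whose Luc groups were apart, where 20.9% of all genes were. In the opposite direction stood Mki67 (-0.94, SE 0.42, limma adjusted p = 0.109), Foxm1 (-0.96, SE 0.44, limma adjusted p = 0.113) and Plk1 (-0.77, SE 0.54, limma adjusted p = 0.28). Top2a stood at -0.47 (SE 0.34, limma adjusted p = 0.298), and the groups overlap. Its value was -0.187 without Luc Aoah 3, -0.2673 without Luc vector 4 and -0.7877 without Luc vector 2.

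Among cyclins and cyclin-dependent kinases, 1 of 11 was called in Luc tumours. Cdk6 was at 2.03, 4.60, 1.97 and 1.78 TPM in Luc Aoah tumours and at 6.16, 4.18, 9.63 and 8.16 TPM in Luc vector tumours. It fell by 1.17 on the log2 scale (SE 0.31, limma adjusted p = 0.0214), which is -0.93 relative to the median of all genes, and only Luc Aoah 2 and Luc vector 2 overlap. The call on Cdk6 in Luc was lost in 8 of 23 alternatives. Without Luc Aoah 3 the limma adjusted p of Cdk6 was 0.0592. Without Luc vector 1 and Luc vector 3, the vector tumours with the most Aoah, it was 0.207. Ccne1, the cyclin that carries cells from G1 into S phase, was at 16.90, 13.51, 12.78 and 12.64 TPM in Luc Aoah tumours and at 32.86, 19.04, 21.44 and 35.02 TPM in Luc vector tumours. Every Luc vector tumour was higher than every Luc Aoah tumour, and the change was -0.87 (SE 0.30, limma adjusted p = 0.0503). Cdk1 stood at 0.57 (SE 0.26, limma adjusted p = 0.115) and Ccne2 at 0.61 (SE 0.30, limma adjusted p = 0.136), so the 2 E-type cyclins had opposite signs. Ccnd1, a D-type cyclin, was at 15.40, 27.37, 6.65 and 12.17 TPM with Aoah and at 22.57, 13.56, 29.96 and 31.51 TPM with vector (change -0.72, SE 0.36, limma adjusted p = 0.138), and the groups overlap. Ccnd2 was at 2.15, 4.63, 0.90 and 2.36 TPM with Aoah and at 21.34, 1.68, 2.06 and 5.14 TPM with vector (change -0.83, SE 0.55), where a single tumour, Luc vector 1, set the high mean.

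**Figure D4:**
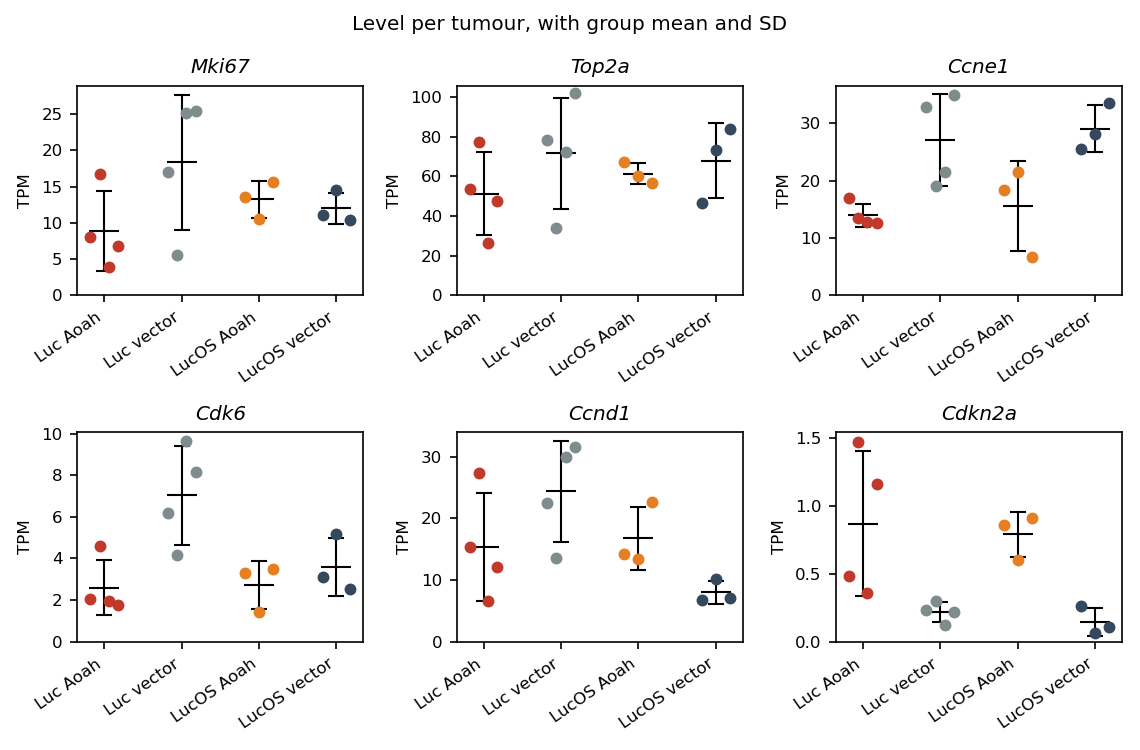
Points are tumours in TPM on a linear axis that starts at 0, with the mean and SD of each group, for 6 genes. Ccne1 is lower and Cdkn2a higher in every Aoah tumour than in every vector tumour of the same model, Cdk6 overlaps slightly in Luc, and Mki67 and Top2a overlap in both models.

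Neither of the 2 inhibitors tested was called in Luc tumours. Cdkn1a, which encodes p21 and is a target of p53, was at 19.19, 27.23, 8.68 and 10.58 TPM in Luc Aoah tumours and at 24.43, 23.48, 41.94 and 33.62 TPM in Luc vector tumours (change -0.96, SE 0.37, limma adjusted p = 0.0671), with overlap through Luc Aoah 2. Cdkn2c, which encodes p18, was at 40.64, 43.85, 31.62 and 27.96 TPM with Aoah and at 26.81, 34.65, 38.16 and 37.41 TPM with vector (change 0.06, SE 0.20). Cdkn2a, which encodes p16 and p19Arf from separate starts, was at 0.48, 1.47, 0.36 and 1.16 TPM in Luc Aoah tumours and at 0.23, 0.30, 0.12 and 0.22 TPM in Luc vector tumours. The LucOS tumours had 0.86, 0.60 and 0.91 TPM with Aoah and 0.26, 0.06 and 0.11 TPM with vector. The Aoah and vector tumours did not overlap in either model. The exact two-sided permutation p was 0.0286 in Luc, 0.1 in LucOS and 0.00143 with both models permuted within themselves, each the smallest the design allows, unadjusted for the 42 genes examined. By limma without the filter, Cdkn2a was higher over both models (0.61, adjusted p = 0.0219). After rescaling without mitochondrial and small noncoding RNA, Cdkn2a passed the filter only through Aoah tumours, where it is high. Its values there (0.65 over both models, limma adjusted p = 0.0109, and 0.60 in Luc, limma adjusted p = 0.0475) are therefore no added support. Of the 29923 symbols, 1.92% were likewise apart and higher with Aoah in both models and 1.09% apart and lower. The level is too low to say which transcript it comes from, since values are summed over the gene.

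In LucOS tumours, 0 of the 41 genes were called by limma, where 0.965% of all genes were (0.75% higher and 0.215% lower), and 3 had an unadjusted p under 0.05, against 12.3% of all genes. The median change was -0.22, and -0.02 for all genes. In this model 15 of 17 G2/M genes, 9 of 11 cyclins and kinases, and 6 of 11 S phase genes had negative changes, and none passed the test. Of all 13466 genes tested, 7068 had negative changes. These genes shift together within a tumour, and LucOS Aoah 3 was the lowest of its group for 27 of the 42, so the counts are not read as a decrease. Ccne1 was at 18.38, 21.55 and 6.69 TPM in LucOS Aoah tumours and at 25.44, 28.23 and 33.63 TPM in LucOS vector tumours, again without overlap (change -0.998, SE 0.35, limma adjusted p = 0.225). Without LucOS Aoah 3, which had the lowest value, the change was -0.52. Ccnd1 was at 14.26, 13.38 and 22.63 TPM in LucOS Aoah tumours and at 6.76, 10.16 and 7.14 TPM in LucOS vector tumours. The groups did not overlap, and the change of 0.96 (SE 0.41, limma adjusted p = 0.359) had the opposite sign from that in Luc tumours. Ccne1 and Ccnd1 were the 2 of 41 (4.88%) whose LucOS groups were apart, where 12.3% of all genes were. Ccnd2 was at 4.11, 1.17 and 3.92 TPM with Aoah and at 1.12, 1.58 and 0.94 TPM with vector (change 0.79, SE 0.63).

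The members with the smallest p in the remaining roles of LucOS tumours also overlapped between groups. Mcm7 was at 37.82, 27.35 and 25.38 TPM with Aoah and at 35.68, 50.72 and 53.31 TPM with vector (change -0.61, SE 0.40, limma adjusted p = 0.609). Cenpa, highest with Aoah in Luc, was at 53.86, 58.28 and 34.56 TPM with Aoah and at 77.81, 48.42 and 81.43 TPM with vector (change -0.49, SE 0.26, limma adjusted p = 0.494). Ccne2 stood at -0.78 (SE 0.35, limma adjusted p = 0.379). Cdkn1a was at 13.91, 11.84 and 18.66 TPM with Aoah and at 9.33, 29.53 and 17.49 TPM with vector, and Cdkn2c at 31.57, 19.45 and 22.96 TPM and at 27.28, 25.24 and 25.06 TPM, so both inhibitors overlapped. E2f1 was at 1.75, 1.11 and 1.80 TPM with Aoah and at 1.10, 2.02 and 1.47 TPM with vector. Mki67 stood at 0.13 (SE 0.49) and Top2a at -0.11 (SE 0.39).

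**Figure D5:**
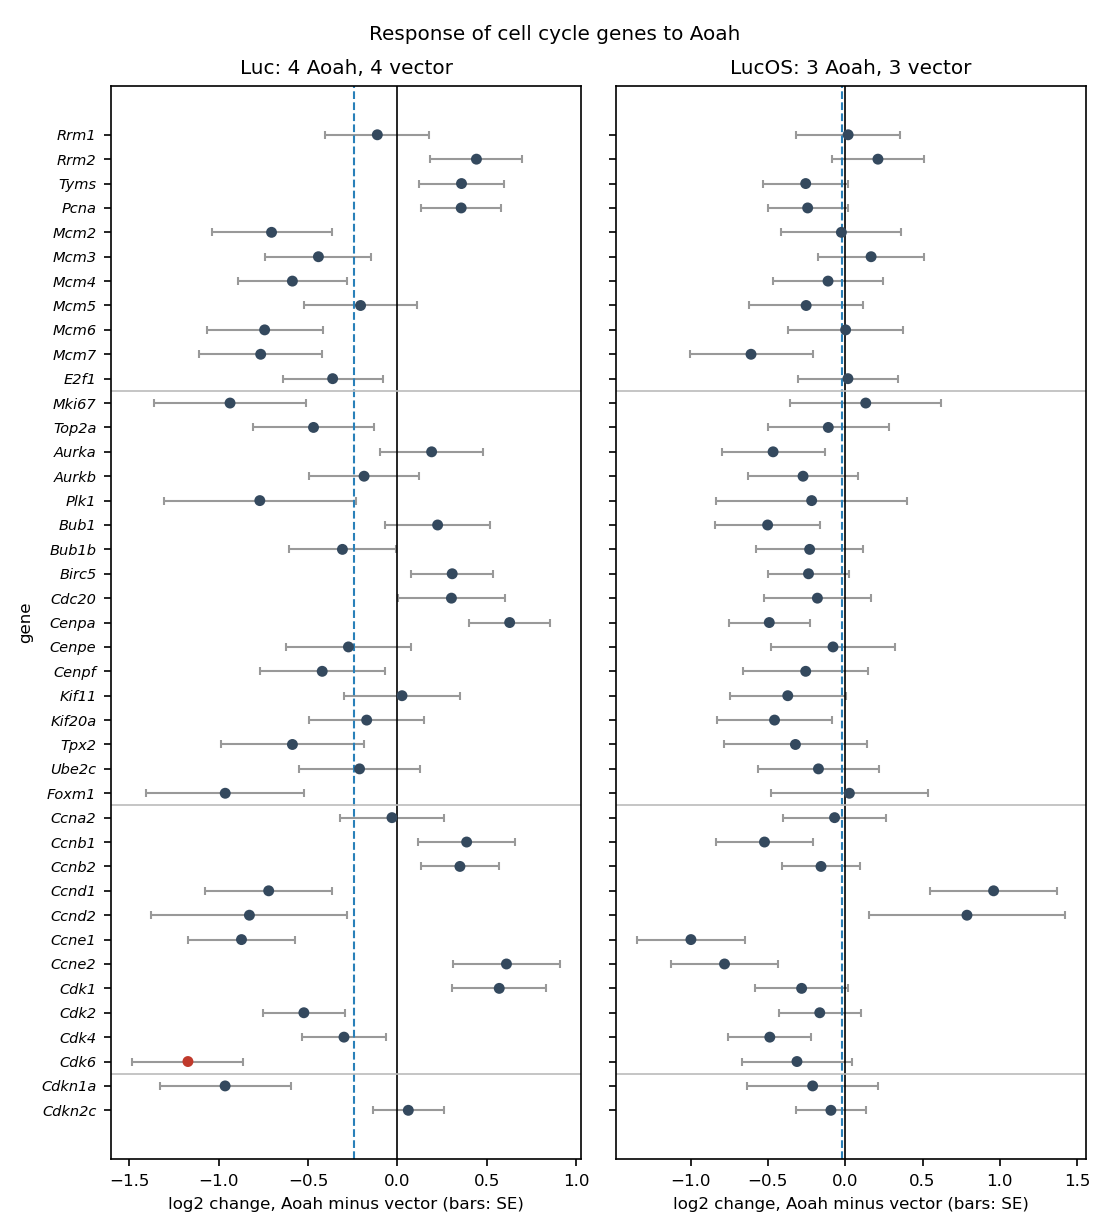
Points are log2 changes of the 41 tested genes, Aoah minus vector, with their standard errors, in Luc tumours (left) and LucOS tumours (right); grey lines part the role groups, the dashed line is the median of all genes and red marks an adjusted p under 0.05. Cdk6 in Luc is the one red point, and Ccne1 is the only one of these genes whose groups are apart in the same direction in both models.

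Averaged over both models, 0 of the 41 genes rose and 2 fell, against 14.7% of all genes called (8.02% higher and 6.68% lower). Ccne1 fell by 0.94 (SE 0.23, limma adjusted p = 0.0146). Its exact two-sided permutation p within models was 0.00143, the smallest possible, unadjusted. Of the 13466 genes tested, 2.06% were apart and lower with Aoah in both models and 3.6% apart and higher. The call on Ccne1 was lost in 1 of 23 alternatives, leaving out Luc vector 1 and Luc vector 3 (limma adjusted p = 0.0591). Cdk6 fell by 0.74 (SE 0.24, limma adjusted p = 0.0488). In LucOS it was at 3.30, 1.41 and 3.5 TPM with Aoah and at 3.09, 5.18 and 2.53 TPM with vector, with a change of -0.31 (SE 0.36) and overlapping groups. The call on Cdk6 was lost in 17 of 23 alternatives, among them leaving out LucOS Aoah 3 (limma adjusted p = 0.0535). No S phase or G2/M gene was called over both models. Their smallest p values belonged to Mcm7 and Tpx2. Mcm7 was at 38.16, 61.44, 16.58 and 25.28 TPM in Luc Aoah tumours and at 65.66, 33.18, 51.81 and 77.31 TPM in Luc vector tumours (change over both models -0.69, limma adjusted p = 0.0901). Tpx2, a spindle assembly factor, was at 13.64, 24.86, 6.17 and 12.19 TPM in Luc Aoah tumours and at 23.25, 8.66, 22.12 and 32.71 TPM in Luc vector tumours. Its LucOS values were 18.8, 12.05 and 14.73 TPM with Aoah and 12.85, 26.62 and 19.75 TPM with vector (change over both models -0.45, SE 0.31, limma adjusted p = 0.307), and its groups overlapped in both models. The upstream sequence of Ccne1 and both starts of Cdkn2a are shown because these genes were apart in both models. The printed stretches of Ccne1 and of the downstream Cdkn2a start held no match to the motifs, although the full window of the latter held a CCAAT box after the start, and the stretch of the upstream Cdkn2a start held 1 E2F core.
Ccne1, chr7:38107535-38107640, minus strand: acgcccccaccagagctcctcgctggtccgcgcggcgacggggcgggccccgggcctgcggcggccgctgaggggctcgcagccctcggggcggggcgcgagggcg
Cdkn2a upstream start, chr4:89294654-89294769, minus strand: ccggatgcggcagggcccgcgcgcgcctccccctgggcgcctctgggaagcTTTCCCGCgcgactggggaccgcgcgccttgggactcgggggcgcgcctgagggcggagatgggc
Cdkn2a downstream start, chr4:89282227-89282342, minus strand: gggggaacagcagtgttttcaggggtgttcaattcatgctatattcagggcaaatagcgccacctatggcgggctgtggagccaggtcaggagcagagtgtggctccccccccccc

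The difference between the models in the response to Aoah was tested directly. None of the 41 genes was called, where 0.00743% of all genes were, and 4 had an unadjusted p under 0.05 against 10.2% of all genes. These were Ccnd1 (1.68, SE 0.54), Ccne2 (-1.39, SE 0.46), Cenpa (-1.12, SE 0.35) and Ccnb1 (-0.91, SE 0.41), each with a limma adjusted p of 0.443. The opposite signs of Ccnd1, Ccne2, Cenpa and Ccnb1 between the models are therefore not shown to differ after adjustment.

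The effect of the antigens was compared among vector tumours and among Aoah tumours. Among vector tumours 0 of the 41 genes were called by limma, as were 0% of all genes, and 4 had an unadjusted p under 0.05, against 14.2% of all genes. Ccnd1 stood at 6.76 to 10.16 TPM in LucOS vector tumours and at 13.56 to 31.51 TPM in Luc vector tumours, without overlap (change -1.45, SE 0.38, limma adjusted p = 0.344). Ccnd2 was apart as well (-1.40, SE 0.59), with a change of -0.7488 without Luc vector 1, and Cdk6 (-0.79, SE 0.34) and Pcna (0.52, SE 0.24) overlapped, all with a limma adjusted p of 0.344. The share of these genes with groups apart was 4.88%, against 9.74% of all genes. Among Aoah tumours 0 of the 41 were called, where 0.0817% of all genes were, and 3 had an unadjusted p under 0.05, against 7.01% of all genes. These were Ccne2 (-0.84, SE 0.32), Cdkn2c (-0.53, SE 0.21) and Cenpa (-0.60, SE 0.25). Ccne2 was the 1 gene whose groups were apart, where 7.48% of all genes were. These comparisons share their tumours with the Aoah comparisons, so the values are given side by side and not as separate evidence.

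The authors' deposited tables of the Aoah comparisons gave other counts in Luc tumours. In the authors' deposited table for Luc, 11 of the 42 genes were higher and 3 lower at an adjusted p under 0.05 against 31.7% of all genes with an adjusted p (15.6% higher and 16.1% lower). The genes listed as higher in the authors' deposited table were Rrm2, Tyms, Pcna, Birc5, Cdc20, Cenpa, Ccnb1, Ccnb2, Ccne2, Cdk1 and Cdkn2a, with log2 fold changes from 0.56 for Cdc20 to 2.18 for Cdkn2a. Those listed as lower in the authors' deposited table were Cdk6 (-1.19), Cdkn1a (-0.71) and Ccne1 (-0.64). The median over the 42 genes was 0.02 in the authors' deposited table and -0.27 over 41 on the TPM scale. In the authors' deposited table for LucOS, 1 of 42 genes was called, Ccnd1 at 1.03 (adjusted p = 0.0189), against 2.77% of all genes (1.99% higher and 0.78% lower).

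Changes also moved with transcript length. Across the 41 genes, the Luc change and the length of the longest coding transcript (GENCODE M21) had a Spearman correlation of -0.387, and across 11418 genes it was -0.409, as a description across genes that share the same libraries. Of the 21 shorter genes (up to 3163 bases) 10 had positive and 11 negative changes in Luc, and of the 20 longer genes 4 had positive and 16 negative changes. Cdk6, the only one of these genes called in Luc, had the longest transcript among them, at 11525 bases. The deviations of single tumours followed length too, with values across all genes from -0.394 in Luc vector 2 and -0.302 in Luc Aoah 3 to 0.411 in Luc vector 4 and 0.408 in Luc Aoah 2. In LucOS the Aoah change had a correlation with length of 0.257 for the cell cycle genes and -0.07 for all genes. The change from Luc to LucOS among Aoah tumours had 0.535 for the cell cycle genes and 0.304 for all genes. Among vector tumours the values were -0.284 and -0.28. The part of length in the changes was not tested.

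The wider pathway was read from 131 further genes in 5 lists. For each list the share of all genes called in Luc is 7.93% higher and 14.3% lower. Among 33 genes of replication licensing and the fork, 1 was higher in Luc tumours, Mcm10, a replication initiation factor, between 26.69 and 41.03 TPM with Aoah and between 8.62 and 21.06 TPM with vector (change 1.04, limma adjusted p = 0.0223). Among 51 mitosis genes, 1 rose and 1 fell in Luc. Spc24, a subunit of the kinetochore complex that holds microtubules, lay between 85.97 and 112.28 TPM with Aoah and between 23.56 and 43.92 TPM with vector, without overlap (change 1.53, SE 0.23, limma adjusted p = 0.000895). Cdc25a, the phosphatase that activates Cdk2, fell by 1.42 (SE 0.33, limma adjusted p = 0.0109). The mitosis list as a whole had 22 positive and 29 negative changes.

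Among 18 genes of the E2F, retinoblastoma and DREAM list, only the activator E2f3 was called in Luc, and it fell by 1.02 (limma adjusted p = 0.0252). Of 10 other cyclins and inhibitors tested, Cdkn1c, which encodes p57, fell by 1.93 (between 28.68 and 40.54 TPM with vector and between 4.92 and 15.14 TPM with Aoah, limma adjusted p = 0.00873). Ccng2, a cyclin linked to cell cycle arrest, rose by 0.76 (limma adjusted p = 0.0348). Of 17 p53 targets and regulators, 0 rose and 4 fell in Luc, namely Trp53 itself (-1.42), Btg2 (-1.24), Sesn2 (-0.94) and Zmat3 (-0.91), with limma adjusted p from 0.017 to 0.0445, where 14.3% of all genes fell. Of 23 alternatives, the call was lost in 13 for Zmat3, 9 for Trp53, 9 for Sesn2 and 5 for Btg2. In Luc the calls on E2f3, Ccng2 and Mcm10 were lost in 9, 8 and 5 alternatives, those on Cdc25a and Cdkn1c in 1 each, and that on Spc24 in none of the 23. Averaged over both models, Spc24 (1.25), Ccng2 (0.87), Mcm10 (0.83), Cdkn1c (-1.495), Cdc25a (-0.96), Btg2 (-0.75) and E2f3 (-0.67) were called, where 14.7% of all genes were. Of the 23 alternatives, the call over both models was lost in 16 for E2f3, 15 for Btg2, 4 for Cdc25a and 3 for Mcm10, and in none for Spc24, Ccng2 and Cdkn1c. In LucOS alone none of the 5 lists had a call, where 0.965% of all genes were called. The genes with the smallest p were Spc24 (0.98), Ccng2 (0.99), Plk3 (1.34), E2f5 (-0.56) and Prim1 (-0.71). Where the models or their responses were compared, none of these genes was called either.

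Markers of other cells differed between the groups in which these genes were compared. Averaged over both models, 8 of 8 T cell genes and 3 of 3 tested B and plasma cell genes rose with Aoah. Of hepatocyte genes 4 of 6 rose, and Hnf4a went the other way (-0.71) without being called. Of tumour and fetal liver genes 4 of 5 fell. The share called over all genes was 14.7%. Of 5 macrophage genes 1 rose, and of 3 tested stellate and fibroblast genes 2 rose. Lrat, a stellate gene among those tested, reached 1 TPM only in Aoah tumours, where it is high, so its values are no added support. Without the Aoah tumours, the T cell genes Cd8a, Cd8b1 and Cd4 would not have passed the filter either. The same holds for Cd79b and Mzb1 of the B and plasma cell genes, so their calls are likewise no added support. Macrophage genes summed in Luc to between 334.81 and 396.09 TPM with Aoah and between 101.16 and 150.99 TPM with vector. In LucOS they summed to between 262.19 and 622.68 and between 162.74 and 281.42 TPM. Lyz2 was the largest term of each sum. In Luc, 3 of the 5 macrophage genes had positive changes and 2, Cd68 and Csf1r, negative ones. The summed stellate and fibroblast genes were apart in both models, between 39.51 and 65.02 against between 12.09 and 30.67 TPM in Luc. In LucOS the sums lay between 37.35 and 85.45 against between 18.26 and 27.54 TPM. Col3a1 made up most of the sums with Aoah. Of the 3 genes tested, 2 had positive changes in Luc. Col1a1 had a negative one, and its Luc groups overlapped (1.46 to 6.1 TPM with Aoah, 2.29 to 6.01 TPM with vector). In Luc, the T cell genes summed to between 42.38 and 75.78 TPM with Aoah and between 4.90 and 15.30 TPM with vector, and in LucOS to between 48.66 and 134.83 and between 11.62 and 30.86 TPM. The tumour and fetal liver genes summed in Luc to between 1272.58 and 5210.43 TPM with Aoah and between 8270.45 and 18157.02 TPM with vector, and in LucOS to between 3849.91 and 6597.15 and between 4039.62 and 10378.59 TPM. The sums of these lists separated the Luc groups without overlap, and those of the macrophage and of the tumour and fetal liver lists overlapped in LucOS. Hepatocyte genes summed in Luc to between 5084.45 and 19217.34 TPM with Aoah and between 3820.56 and 5479.47 TPM with vector. In LucOS they summed to between 5838.47 and 14606.25 and between 2208.49 and 5255.00 TPM. Alb was the largest term of each hepatocyte sum, and H19 of each tumour and fetal liver sum. Of 6 tested neutrophil and precursor genes 2 fell, and of 5 erythroid genes none was called. Of the neutrophil markers, Ly6g was at 0 in 4 of the 14 tumours. The part of these cells in the levels of the cell cycle genes was not tested.

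Some values rest on reads that can belong to more than 1 gene. The labels do not say which libraries kept strand, and 13 of the 42 genes overlap an exon of a gene on the opposite strand, among them Cdk6, Ccnd1, Ccnd2, Ccne2, Cdk4 and Cdkn1a, so their reads cannot be told from those of the partner where strand was not kept. The processed pseudogene Pcna-ps2 was at 2.46 to 7.04 TPM and Ccnb1-ps at 0.43 to 1.98 TPM, far under Pcna and Ccnb1, and the split of shared reads between them is uncertain.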

How the data were processed

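PolyA RNA of 14 tumours was sequenced. The authors deposited log2(TPM + 1) values, made with RSEM against mm39 per the submitters' processing notes, for 29923 symbols. The authors' deposited comparison tables give a mean normalized count (a signal averaged over samples), log2 fold changes, p-values, and a standard error and Wald statistic (score) from DESeq2, per the submitters' processing notes. Since the tables name no direction, the sign of Aoah, the delivered gene, gave it. Versions and strand settings are not given in the sources used here.

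Genes with at least 1 TPM in at least 3 tumours (13466) were fitted with limma 3.58.1 (R 4.3.3), with 1 mean per group, trend and robust variance, 6 contrasts and Benjamini-Hochberg adjustment at 0.05. Fold changes are on the log2(TPM + 1) scale, which understates changes of low genes. Single values were tested by exact permutation of tumours. The code was tested on simulated data. Any of the 42 members could be named. Values in every tumour are given for Mki67, Top2a, Ccnd1, Ccnd2, Ccne1, E2f1, Foxm1, the inhibitors, called members, and the smallest p of a role with no call. Of other pathway genes, up to 4 called per list, or the smallest p, are named. Names and lengths came from GENCODE M21, since no mm39 annotation was used here. The members and lists were chosen with earlier results of these data known. Receptor repertoire data were not used. TPM carries no depth, so counting error is unknown. Alternatives covered the pseudocount, filter, scaling, tumours fitted, replicate block and each tumour left out.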

Additional observations from a re-analysis of the deposited data

Results flagged for a closer look

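Among 84 sets of 4 Luc tumours examined (42 genes in each Luc group), 2 had a tumour far from the rest, where chance gives about 1 in 20. Mcm3 was lowest in Luc vector 2, at 13.9 TPM. Cdk6 was highest among Luc Aoah tumours in Luc Aoah 2, at 4.6 TPM.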

How the results depend on the processing

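In Luc tumours the count of cell cycle genes called, 1, became 0 with no filter on low values and 3 with only the Luc groups fitted. It was 7 with each tumour centred on its median and 4 after rescaling without mitochondrial and small noncoding RNA. The 4 include Cdkn2a, which was not among the 41 genes of the main count and passed the filter there only through Aoah tumours. The count was 0 without Luc vector 1 and Luc vector 3. Without Luc Aoah 3 and Luc vector 2 it was 2, an alternative chosen after seeing the data. Leaving out 1 tumour gave 0 to 11, with 0 without Luc Aoah 1, Luc Aoah 3, Luc Aoah 4, Luc vector 3 or Luc vector 4. Averaged over both models the count, 2, was 1 with a pseudocount of 0.1, 0 without Luc vector 1 and Luc vector 3, and 1 to 3 with 1 tumour left out. In the other 4 comparisons it was 0 in all 23 alternatives. Top2a in LucOS, at -0.1094, ranged from -0.3541 to 0.0598 with 1 tumour left out, and was positive without LucOS vector 3. All genes called in Luc, 2988, ranged from 355 to 5251, in LucOS, 130, from 6 to 353, and over both, 1980, from 876 to 3329. Calls over all genes moved too, so the counts of cell cycle genes are not read as a result about these genes. The cause of these moves was not tested.

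With the replicate block the counts of cell cycle genes were 0 in Luc and 1 over both models. Over the alternatives, calls among all genes ranged from 355 to 5251 in Luc and from 876 to 3329 over both models. The lower counts are therefore not read as a result about these genes. Same-numbered tumours correlated between -0.554 and 0.198, and a tumour correlated best with its own number in 3 of 13 pairs, so the numbers were not taken as pairs.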
